A study of Caenorhabditis elegans with 30 samples.

Results

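The genes of butanone sensing by the AWC olfactory neurons of Caenorhabditis elegans are described here, 9 in all, across the 10 groups of the study. They were chosen by name, by their known part in the signalling chain, with earlier results of these data known. The 9 genes are odr-3 and gpa-2 (G protein subunits), odr-1 and daf-11 (guanylyl cyclases), tax-2, tax-4 and osm-9 (channels), egl-4 (a kinase) and arr-1 (an arrestin). They are 9 of 46904 genes in the counts of the lithium experiment and 9 of 46778 in those of the ice experiment.

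RNA with a poly(A) tail was sequenced from whole worms of the wild-type strain N2, fed the Escherichia coli strain OP-50, in a study of how cold and lithium delay the forgetting of odour memories. The lithium experiment had 4 groups of 3 libraries: 15 mM lithium chloride overnight at 15 C, plain NGM agar at 15 C, 15 mM lithium chloride overnight at 20 C and plain NGM agar at 20 C, none of them trained or put on ice. The ice experiment had 6 groups of 3 libraries, from worms conditioned with butanone or left naive, and all of these worms spent 2 hours on ice before extraction. Their earlier temperature was 15 C overnight followed by 2 hours at 20 C (called shifted here), 15 C overnight, or 20 C throughout; the submitters describe worms kept at 20 C as cold sensitive and worms kept at 15 C as cold tolerant. All groups carry the wild-type genome, and the RNA is that of every tissue of the animal, of which AWC is a single pair of neurons.

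In AWC an odorant receptor acts through G proteins on the receptor-type guanylyl cyclases ODR-1 and DAF-11, which make cGMP, and cGMP keeps the TAX-2/TAX-4 channel open. EGL-4, a kinase switched on by cGMP, moves to the nucleus when worms adapt to an odour, and the TRPV channel OSM-9 is needed for such adaptation. Most of these genes are known from small sets of sensory neurons, while egl-4 and arr-1 are used in many neurons and, for egl-4, in other tissues too.

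Library totals lay between 10111055 and 27794834 counts for lithium and between 9873554 and 30054357 for ice. A count of 0 therefore allows a level of up to 0.108 to 0.297 CPM (counts scaled by library size; the floor is 3 counts) in the lithium libraries and up to 0.0998 to 0.304 CPM in the ice libraries, for counting error only. One library of the lithium experiment stood apart, plain agar at 20 C replicate 2: its 22 neuron markers summed to 764 CPM, against 366 to 551 CPM in the other libraries, and its germline markers to 3281 CPM, the lowest of the 12. In the ice experiment the libraries lettered B and H, at 15 C and after the shift, had germline sums of 2862 to 4418 CPM, the lowest of the 18, and muscle sums of 17395 to 31652 CPM, the highest. The receptor genes str-2 and srsx-3 tell the AWC neurons of a pair apart. Among 8 AWC markers, these 2 had 0 counts in all 12 lithium libraries and 10 and 20 counts in all over the 18 ice libraries. The others detected in most libraries (ceh-36, nlp-1, olrn-1 and nsy-4) are not AWC's alone, so these data hold little RNA that can be assigned to AWC. In whole-worm RNA, fewer cells of a type and less RNA per cell cannot be told apart.

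Levels of the 9 genes fell into 3 tiers. The kinase gene egl-4 (chromosome IV, 1848071 to 1880596, plus strand, ce11) took 94.1% of the 53607 counts of the 9 genes in the lithium experiment and 92.4% of their 52128 counts in the ice experiment. The arrestin gene arr-1 (chromosome X, 950782 to 954233, plus strand) took 4.99% and 6.50%. The other 7 genes together had 512 counts over 12 libraries and 569 counts over 18 libraries with a median of at most 20 counts per library for any of them.

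**Figure D1:**
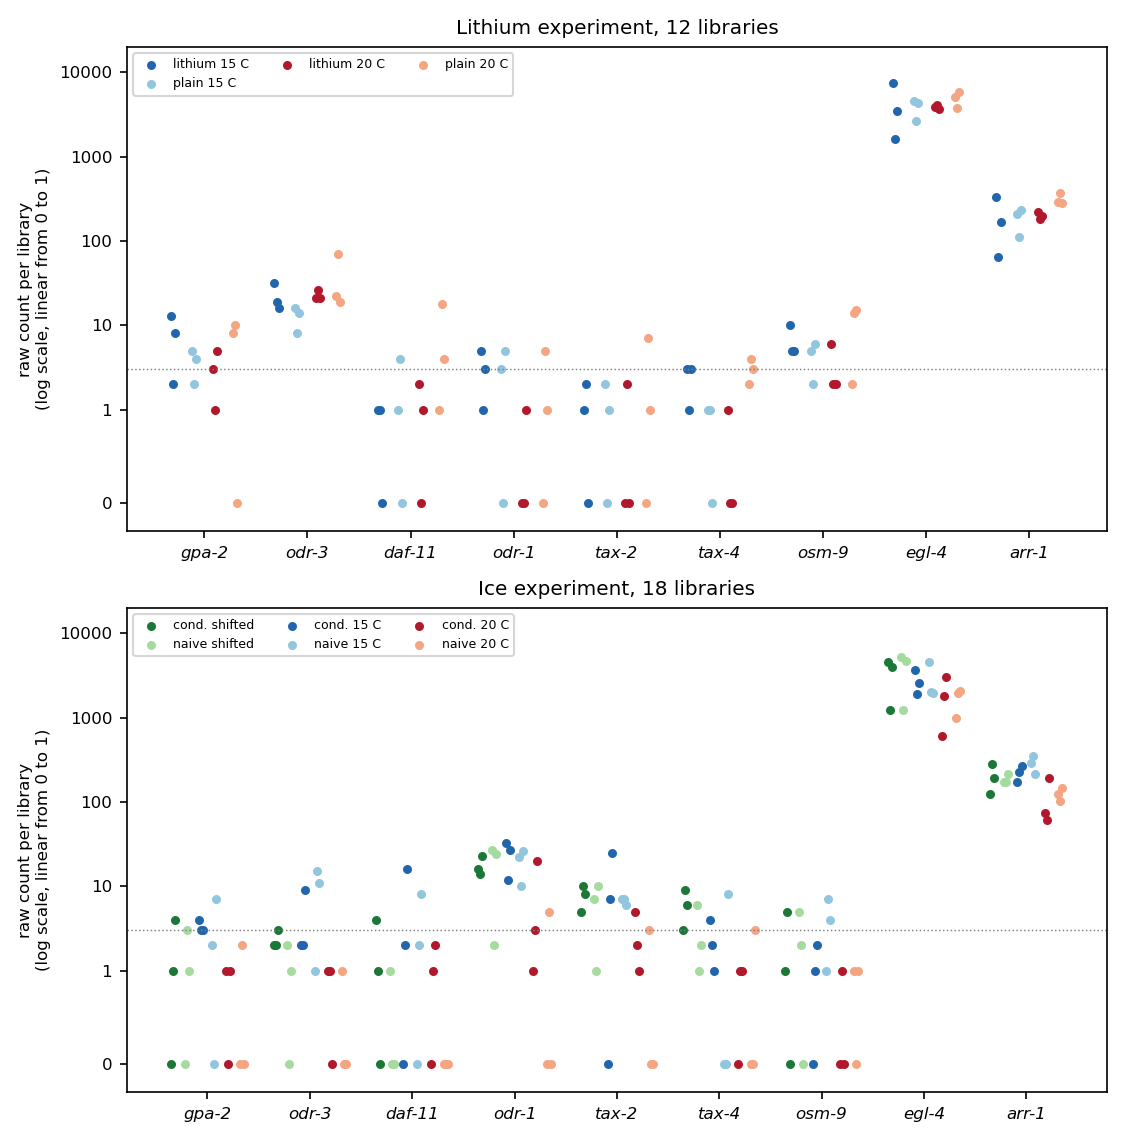
Raw count of each of the 9 genes in each library, on a log axis that is linear from 0 to 1; each point is 1 library, coloured by group, and the dotted line marks 3 counts. The points of egl-4 lie between 604 and 7420 counts and those of arr-1 between 61 and 369, while the other 7 genes reach at most 71 counts and often sit at 0.

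Per kilobase of exon the order in the lithium experiment was egl-4 with a mean of 68.1 CPM per kb, arr-1 with 8.97, odr-3 with 0.953, gpa-2 with 0.213, osm-9 with 0.132, daf-11 with 0.0470, tax-4 with 0.0384, tax-2 with 0.0373 and odr-1 with 0.0336. In the ice experiment it was egl-4 with 31.9 CPM per kb, arr-1 with 5.78, odr-1 with 0.184, tax-2 with 0.110, odr-3 with 0.0827, gpa-2 with 0.0633, tax-4 with 0.0465, osm-9 with 0.0274 and daf-11 with 0.0238. Below arr-1 the order is loose, since the SD over libraries was close to or above the mean for most of these genes. The upper tiers were the same in both experiments, while odr-3 stood above odr-1 in the lithium experiment and below it in the ice experiment. The experiments used different library kits and were counted in separate tables, so no level was tested between them.

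Among the G protein genes, odr-3 encodes the alpha subunit that carries most of the odour response of AWC (chromosome V, 13246324 to 13249536, minus strand). In the lithium experiment it had 32, 19 and 16 counts with lithium at 15 C and 16, 8 and 14 counts on plain agar at 15 C. At 20 C it had 21, 26 and 21 counts with lithium and 22, 71 and 19 counts on plain agar. The 71 counts belong to the library that stands apart, and no other library of this experiment exceeded 32.

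As TMM-scaled CPM, odr-3 averaged 1.35 ± 0.570 with lithium at 15 C and 0.830 ± 0.0746 on plain agar at 15 C, and 1.66 ± 0.182 with lithium at 20 C and 2.38 ± 2.30 on plain agar at 20 C (SD, n = 3 each). On plain agar all 3 libraries of 15 C lay below all 3 of 20 C, the nearest at 0.908 and 0.918 CPM. The log2 fold change was -1.49 (SE 0.59, 95% interval -2.76 to -0.22, edgeR adjusted p = 0.091). That value depended on single libraries of 20 C: it was -0.35 without replicate 2 (adjusted p = 0.61) and -1.86 without replicate 3, where it passed the test (adjusted p = 0.031). Lithium gave a log2 fold change of 0.66 at 15 C (SE 0.60, adjusted p = 0.60), where the groups did not overlap in CPM, and of -0.50 at 20 C (SE 0.56, adjusted p = 0.55), where they did. Without plain agar replicate 2 the value at 20 C was 0.65 (adjusted p = 0.32). The difference between these lithium responses, 15 C minus 20 C, was 1.16 (SE 0.82, adjusted p = 0.56), and -0.01 without that library. In the ice experiment odr-3 had 53 counts over 18 libraries and did not pass the filter on low counts. Of these, 15 were in naive letter H at 15 C, 11 in naive letter B at 15 C and 9 in conditioned letter B at 15 C, and no other library had over 3.

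The second G protein alpha gene, gpa-2 (chromosome V, 8371005 to 8374034, plus strand), which acts beside odr-3 in AWC, had 61 counts in the lithium experiment and 32 in the ice experiment. It had 13, 2 and 8 counts with lithium at 15 C, 5, 2 and 4 on plain agar at 15 C, 3, 1 and 5 with lithium at 20 C, and 8, 10 and 0 on plain agar at 20 C. On ice it had 0 to 7 counts per library and was at 0 in 6 of 18. Its groups overlapped in every comparison, and 71 of its exon bases lie opposite F38E1.10, a gene on the other strand, so reads of the 2 genes there cannot be told apart without strand.

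Of the guanylyl cyclase genes, odr-1 (chromosome X, 13544729 to 13550990, minus strand) encodes the cyclase that AWC needs to respond to its odours. It had 24 counts in the lithium experiment, with at most 5 in a library, and 265 in the ice experiment. With lithium it had 5, 1 and 3 counts at 15 C and 0, 0 and 1 at 20 C; the counts met at 1, and the groups lay apart in CPM alone, the nearest libraries at 0.106 CPM with lithium at 15 C and 0.0711 CPM with lithium at 20 C. In shifted worms it had 16, 23 and 14 counts in conditioned letters C, D and H and 27, 24 and 2 in their naive partners. At 15 C it had 27, 33 and 12 counts in conditioned letters B, G and H and 26, 22 and 10 in their naive partners. At 20 C it had 3, 1 and 20 counts in conditioned letters A, E and F and 5, 0 and 0 in their naive partners. The 20 C libraries were low with 1 exception, conditioned letter F.

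To compare temperatures on ice, the conditioned and naive counts of a letter were added, which gave 3 sums per temperature. For odr-1 these sums were 43, 47 and 16 counts in shifted letters C, D and H, 53, 55 and 22 at 15 C in letters B, G and H, and 8, 1 and 20 at 20 C in letters A, E and F. In CPM they averaged 0.678 ± 0.228 in shifted worms, 0.937 ± 0.498 at 15 C and 0.269 ± 0.202 at 20 C (SD, n = 3 each). In CPM the sums of 15 C overlapped those of 20 C, letter H lying below letter F. The log2 fold change of 15 C against 20 C was 1.74 (SE 0.84, 95% interval -0.10 to 3.59, edgeR adjusted p = 0.40), that of shifted worms against 20 C was 1.28 (SE 0.83, adjusted p = 0.57), and that of shifted worms against 15 C was -0.46 (SE 0.80, adjusted p = 1.00). Without letters B and H, which leaves letter G alone at 15 C, the first was 1.86 and the second 1.51. With 1 letter left out the first was 1.28 to 2.31 and the second 0.82 to 1.85, both lowest without letter E and highest without letter F. From conditioned libraries alone they were 1.23 and 0.78, and from naive libraries alone 2.65 and 2.22. Across the 3 temperatures conditioned worms differed from naive worms by 0.81 on the log2 scale (95% interval -0.55 to 2.16), with conditioned libraries higher in 6 of 9 letters. Leaving out 1 library moved that value between 0.39, without conditioned letter F at 20 C, and 2.33, without naive letter A at 20 C.

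The partner cyclase gene daf-11 (chromosome V, 11718102 to 11726071, minus strand), which also serves the pheromone pathway to the dauer larva, had 33 counts in the lithium experiment, of which 18 were in plain agar at 20 C replicate 2. It had 1, 1 and 0 counts with lithium at 15 C, 1, 4 and 0 on plain agar at 15 C, 2, 0 and 1 with lithium at 20 C, and 1, 18 and 4 on plain agar at 20 C. In the ice experiment 24 of its 37 counts were in letter B at 15 C, 16 conditioned and 8 naive, and it was at 0 in 9 of 18 libraries. It did not pass the filter in either experiment, and in each experiment 1 library or 1 letter held more of its counts than all others together.

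The channel subunit genes tax-2 (chromosome I, 9020945 to 9025608, plus strand) and tax-4 (chromosome III, 9181546 to 9185888, plus strand) form the cGMP-gated channel that carries the signal of AWC and of several other sensory neurons. In the lithium experiment tax-2 had 16 counts and was at 0 in 5 of 12 libraries, and tax-4 had 19 and was at 0 in 3. On ice tax-2 was at 0 in 3 of 18 libraries and passed the filter. It had 5, 8 and 10 counts in conditioned shifted letters C, D and H and 7, 10 and 1 in their naive partners.

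At 15 C tax-2 had 25, 0 and 7 counts in conditioned letters B, G and H and 6, 7 and 7 in their naive partners. At 20 C it had 2, 5 and 1 counts in conditioned letters A, E and F and 0, 3 and 0 in their naive partners. Conditioned letter B at 15 C was the highest and its own naive partner was not. The log2 fold change of conditioned over naive worms across temperatures was 1.04 (SE 0.79, 95% interval -0.63 to 2.72, edgeR adjusted p = 1.00), and that of 15 C over 20 C was 1.37 (SE 1.07, adjusted p = 0.57). Both turned negative without letters B and H, at -1.31 and -0.18. That setting leaves letter G alone at 15 C, with 0 conditioned and 7 naive counts. With 1 library left out the first was 0.46 to 2.32, and with 1 letter left out the second was 0.35 to 3.00. In CPM conditioned libraries were higher in 7 of 9 letters.

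For tax-4 the counts were few, but the groups lay apart in 4 comparisons. With lithium at 15 C it had 3, 1 and 3 counts and on plain agar at 15 C 1, 1 and 0. With lithium at 20 C it had 1, 0 and 0 counts and on plain agar at 20 C 2, 4 and 3. It was thus lower with lithium than on plain agar at 20 C and lower at 15 C than at 20 C on plain agar, and higher at 15 C than at 20 C with lithium, each time with no overlap in CPM, though with lithium the counts of the 2 temperatures met at 1. On ice the letter sums were 9, 8 and 10 counts in shifted letters C, D and H, 9, 4 and 2 at 15 C in letters B, G and H, and 1, 0 and 4 at 20 C in letters A, E and F, and the sums of shifted worms lay above those of 20 C. Differences of a few counts carry a large counting error, tax-4 did not pass the filter in any fit, and with no filter its adjusted p was at least 0.26 in these 4 comparisons.

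The TRPV channel gene osm-9 (chromosome IV, 3551090 to 3557431, minus strand) had 74 counts in the lithium experiment. It had 10, 5 and 5 counts with lithium at 15 C, 5, 2 and 6 on plain agar at 15 C, 6, 2 and 2 with lithium at 20 C, and 2, 14 and 15 on plain agar at 20 C. Here the 2 high libraries of plain agar at 20 C were replicates 2 and 3, and replicate 1 was among the lowest of all. On ice it had 31 counts, was at 0 in 6 of 18 libraries and reached at most 7, in naive letter H at 15 C.

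**Figure D2:**
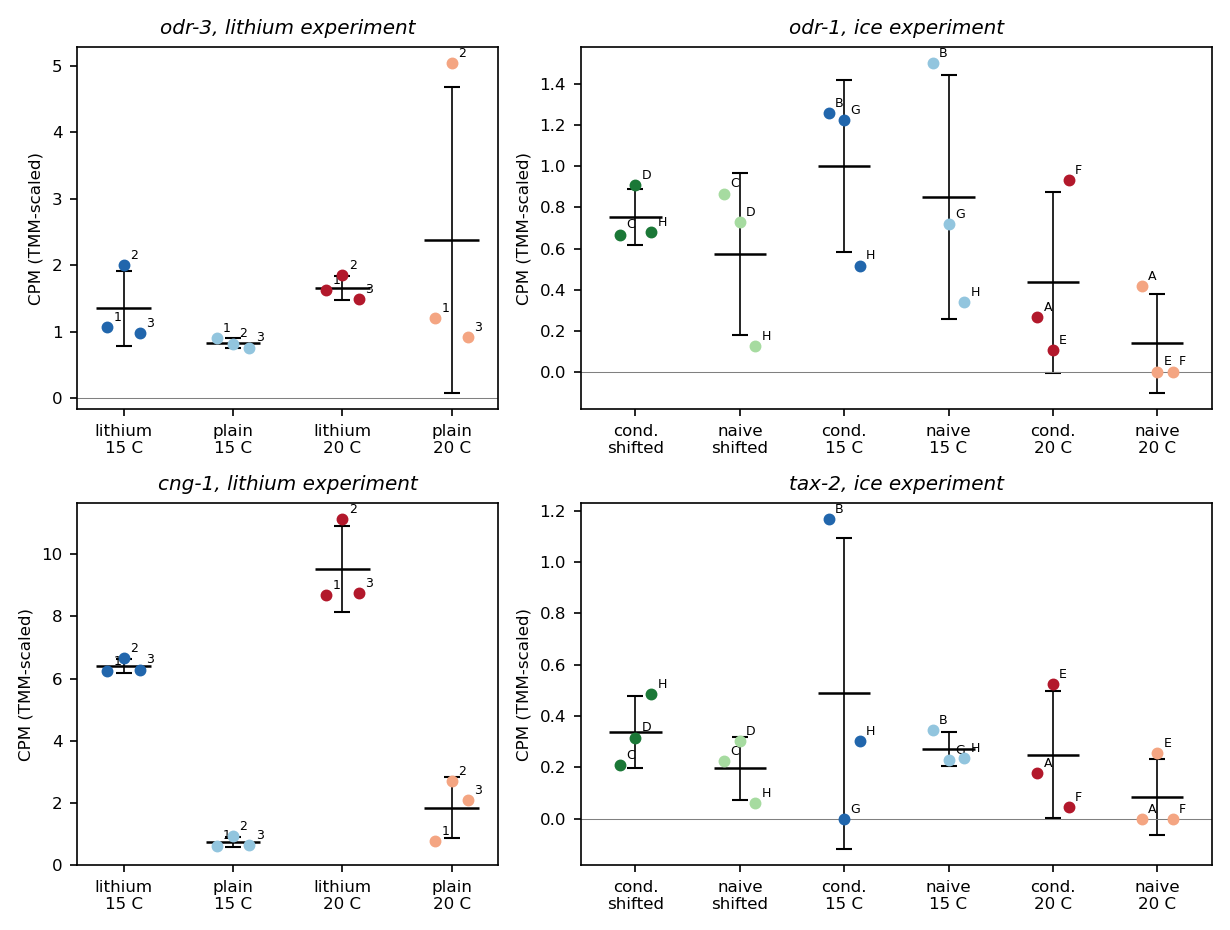
TMM-scaled CPM of odr-3 and cng-1 in the 12 lithium-experiment libraries and of odr-1 and tax-2 in the 18 ice-experiment libraries; points are libraries with their replicate number or letter, the horizontal lines are means and the bars 1 SD (n = 3). The mean of odr-3 on plain agar at 20 C rests on replicate 2, odr-1 is at 0 in naive letters E and F at 20 C, tax-2 is highest in conditioned letter B at 15 C, and cng-1 has no overlap between lithium and plain agar at either temperature.

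The kinase gene egl-4 was measured with 604 to 7420 counts in every library, enough to bound its response. In the lithium experiment it had 247, 172 and 212 CPM with lithium at 15 C and 259, 269 and 233 CPM on plain agar at 15 C. At 20 C it had 304, 290 and 260 CPM with lithium and 276, 270 and 286 CPM on plain agar. The 15 C libraries lay below the 20 C libraries in both media, by less than 1 CPM between the nearest libraries on plain agar.

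The log2 fold change of egl-4 with lithium was -0.27 at 15 C (SE 0.15, 95% interval -0.60 to 0.06, edgeR adjusted p = 0.38) and 0.04 at 20 C (SE 0.15, 95% interval -0.29 to 0.36, adjusted p = 0.88). That of 15 C against 20 C was -0.44 with lithium (SE 0.15, 95% interval -0.76 to -0.11, adjusted p = 0.36) and -0.13 on plain agar (SE 0.15, 95% interval -0.45 to 0.20, adjusted p = 0.52). The difference between the lithium responses of the 2 temperatures, 15 C minus 20 C, was -0.31 (SE 0.21, 95% interval -0.77 to 0.15, adjusted p = 0.56). Lithium replicate 1 and replicate 2 at 15 C set the range of these values when 1 library was left out, -0.47 to -0.14 for lithium at 15 C and -0.62 to -0.31 for 15 C against 20 C with lithium.

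In the ice experiment egl-4 had 192, 156 and 59.6 CPM in conditioned shifted letters C, D and H and 169, 141.6 and 75.9 CPM in their naive partners. At 15 C it had 119, 138 and 83.1 CPM in conditioned letters B, G and H and 112, 149 and 69.0 CPM in their naive partners. At 20 C it had 160, 63.4 and 142.5 CPM in conditioned letters A, E and F and 163, 84.1 and 84.8 CPM in their naive partners. Partners of a letter were close and letters far apart: letter means spanned 1.42 on the log2 scale, and the largest difference between partners was 0.75, in letter F. Letter H was low both at 15 C and after the shift.

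Conditioned worms had higher egl-4 than their naive partners in 5 of 9 letters, with a log2 fold change across temperatures of 0.09 (SE 0.29, 95% interval -0.53 to 0.71, edgeR adjusted p = 1.00). That fit did not pair the letters, so its SE takes up the spread between letters. The log2 fold change was 0.08 in shifted worms, 0.04 at 15 C and 0.14 at 20 C. Between temperatures the values were 0.20 for shifted worms against 15 C, 0.02 for 15 C against 20 C and 0.22 for shifted worms against 20 C, each with an SE of 0.51. The 95% interval for 15 C against 20 C ran from -1.11 to 1.15, so a change of 1 on the log2 scale in either direction was not excluded there.

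**Figure D3:**
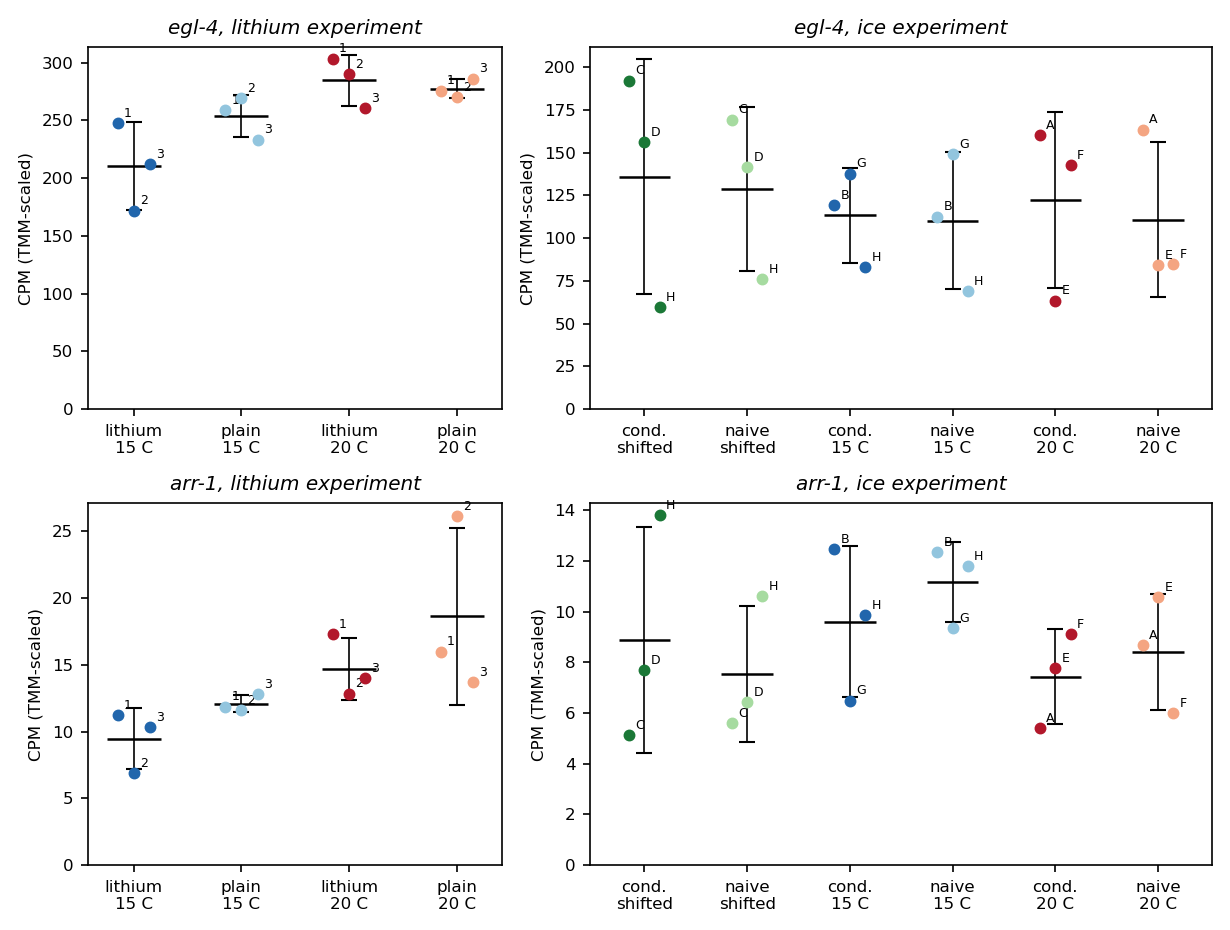
TMM-scaled CPM of egl-4 (top) and arr-1 (bottom) in the 12 lithium-experiment libraries (left) and the 18 ice-experiment libraries (right); points are libraries with their replicate number or letter, horizontal lines are means and bars 1 SD (n = 3), and the axes start at 0. Both genes are lower at 15 C than at 20 C in the lithium experiment, within either medium. On ice the letters differ more than conditioned and naive partners do for egl-4. For arr-1 letter means over all temperatures span 1.21 on the log2 scale, and partners differ by up to 0.68, in letter A at 20 C.

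The arrestin gene arr-1, the worm homologue of the beta-arrestins, which binds activated G protein-coupled receptors, had 65 to 369 counts per lithium-experiment library. It had 11.2, 6.86 and 10.3 CPM with lithium at 15 C and 11.9, 11.6 and 12.8 CPM on plain agar at 15 C. At 20 C it had 17.3, 12.8 and 14.02 CPM with lithium and 16.001, 26.2 and 13.7 CPM on plain agar. The groups of 15 C lay below those of 20 C in both media, and lithium below plain agar at 15 C alone.

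The log2 fold change of arr-1 between 15 C and 20 C was -0.63 with lithium (SE 0.27, 95% interval -1.21 to -0.04, edgeR adjusted p = 0.41) and -0.62 on plain agar (SE 0.27, 95% interval -1.20 to -0.04, adjusted p = 0.11). Both unadjusted p were 0.039, and neither passed once adjusted over all genes. On plain agar the value was -0.30 without replicate 2 of 20 C (adjusted p = 0.45). With lithium the gene had a log2 fold change of -0.34 at 15 C (SE 0.27, adjusted p = 0.54) and of -0.34 at 20 C (SE 0.27, adjusted p = 0.39). At 20 C it was -0.01 without plain agar replicate 2.

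On ice arr-1 had 5.14, 7.70 and 13.8 CPM in conditioned shifted letters C, D and H and 5.59, 6.44 and 10.6 CPM in their naive partners. At 15 C it had 12.5, 6.49 and 9.87 CPM in conditioned letters B, G and H and 12.4, 9.36 and 11.8 CPM in their naive partners. At 20 C it had 5.40, 7.77 and 9.11 CPM in conditioned letters A, E and F and 8.67, 10.6 and 6.01 CPM in their naive partners. Conditioned and naive worms overlapped at each temperature. Conditioned libraries were higher in 4 of 9 letters, the log2 fold change across temperatures was -0.05 (SE 0.25, 95% interval -0.59 to 0.48, edgeR adjusted p = 1.00), and that of 15 C against 20 C was 0.43 (SE 0.45, adjusted p = 0.70).

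Over the 7 low genes, the summed level on ice was lowest at 20 C. The sums of the letters were 1.45, 1.45 and 1.32 CPM in shifted letters C, D and H, 4.01, 1.41 and 1.28 CPM at 15 C in letters B, G and H, and 0.634, 0.624 and 0.643 CPM at 20 C in letters A, E and F. All letters of shifted worms and of 15 C thus lay above all letters of 20 C, also without B and H. In single libraries they overlapped, with 0.555 CPM in naive shifted letter H and 1.17 CPM in conditioned letter F at 20 C. In counts these sums were 79, 82 and 51, then 153, 76 and 70, then 16, 13 and 29, and odr-1 made up 265 of the 569 counts. This is a description of a sum chosen after single genes had been seen, with no test. The 22 neuron markers moved alongside, with sums of 202 to 397 CPM in shifted letters, 150 to 489 CPM at 15 C and 148 to 165 CPM at 20 C, and a median log2 fold change of 1.44 for 15 C against 20 C, with 21 of 22 positive and 0 called, beside a median of 0.14 over all genes tested. In letter G at 15 C the 22 neuron markers summed to 150 CPM, within the range of 20 C. The 7 genes summed to 1.41 CPM there, and 55 of their 76 counts were odr-1. The 8 AWC markers summed to 6.89 to 17.8 CPM at 15 C and 8.77 to 15.2 CPM in shifted letters. At 20 C they summed to 2.78 to 4.71 CPM, with no overlap. Markers of other amphid neurons had at least 1.75 CPM at 15 C, at least 2.41 CPM in shifted letters and at most 1.54 CPM at 20 C. Sums of ciliated neuron markers overlapped between 15 C and 20 C. Lists of other tissues differed too. The median letter sum of muscle markers was 20772 CPM at 15 C, 11745 CPM in shifted letters and 10564 CPM at 20 C. In the same order the medians of hypodermis markers were 1059, 1268 and 616 CPM. Medians of intestine markers (56165, 62196 and 67304 CPM) and germline markers (4240, 8643 and 8531 CPM) were not lowest at 20 C. Ranges overlapped between 15 C and 20 C for each of these tissues. The part of these marker lists in the sum of the 7 genes was not tested.

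In the lithium experiment the 7 low genes summed to 2.14 to 3.27 CPM with lithium at 15 C, 1.63 to 1.87 CPM on plain agar at 15 C, 2.13 to 2.56 CPM with lithium at 20 C and 1.91 to 9.15 CPM on plain agar at 20 C. The 9.15 CPM belong to replicate 2 of plain agar at 20 C, which was the highest of the 12 libraries for 8 of the 9 genes, egl-4 being the exception. The other 2 libraries of that group had 1.91 and 2.08 CPM. Lithium libraries at 15 C lay above plain agar at 15 C, and no test was made of this sum either.

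**Figure D4:**
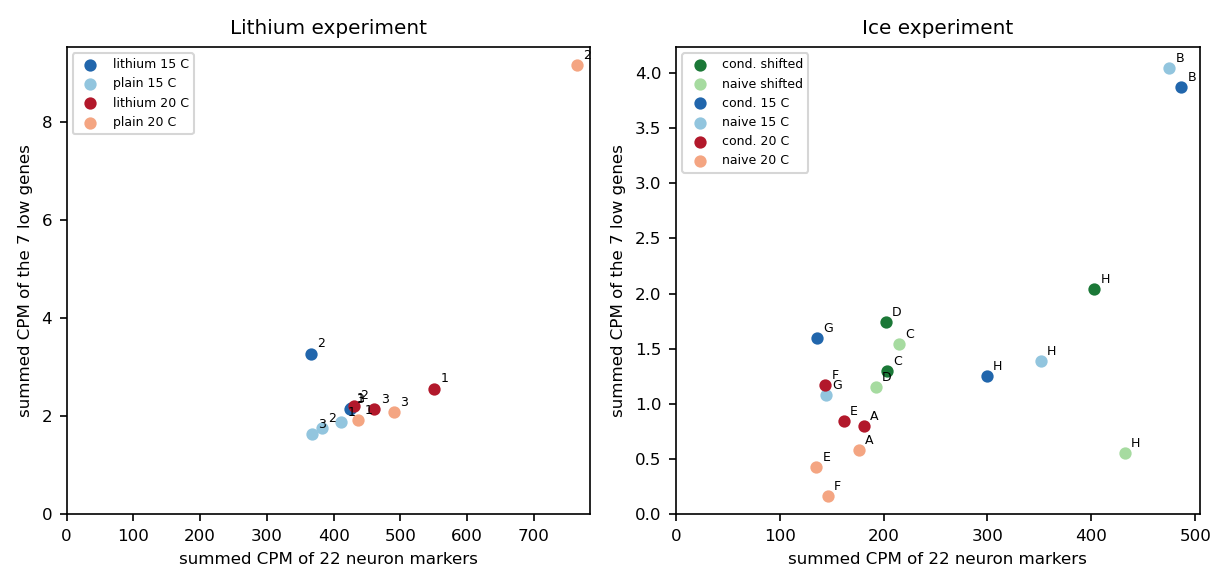
Summed CPM of the 7 low genes against summed CPM of 22 neuron markers, 1 point per library, for the lithium experiment (left) and the ice experiment (right), coloured by group and marked with the replicate number or letter. Plain agar at 20 C replicate 2 stands apart at 9.15 and 764 CPM, and letter B at 15 C is highest on ice; the points share a library and its depth on both axes.

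None of the 9 genes passed the test over all genes in any of the 13 comparisons. For lithium 3 of the 9 genes passed the filter on low counts (odr-3, egl-4 and arr-1) and on ice 4 (odr-1, tax-2, egl-4 and arr-1). With lithium at 15 C 0 of 3 were called, against 0.387% of 12392 genes tested (0.161% higher and 0.226% lower). With lithium at 20 C 0 of 3 were called, against 12.2% (5.91% higher and 6.33% lower). For 15 C against 20 C on plain agar 0 of 3 were called, against 9.97% (2.19% higher and 7.77% lower). In the other 10 comparisons 0 genes were called at all (0%) by edgeR. At an unadjusted p under 0.05 these had 1445 genes for 15 C against 20 C with lithium and 1261 for the difference in lithium response. For conditioning they had, of 14864 genes tested, 7 in shifted worms, 17 at 15 C and 60 at 20 C. Across temperatures they had 32, and 42 for the difference in conditioning response between 20 C and 15 C. These conditioning fits did not pair the letters, so their p-values take up the spread between letters. Between temperatures on ice there were 512 genes for shifted worms against 15 C, 1945 for 15 C against 20 C and 1855 for shifted worms against 20 C. DESeq2 called 84 genes for 15 C against 20 C with lithium, 184 for 15 C against 20 C on ice, 1 for shifted worms against 15 C and 999 for shifted worms against 20 C, with no member among them. With no filter on low counts, all 9 members were fitted and again 0 were called, the lowest adjusted p being 0.12, for odr-3 on plain agar.

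The number of members whose groups did not overlap in CPM varied between comparisons, and the shares of all genes tested are given beside it. With lithium at 15 C 2 of 9 members lay apart (odr-3 higher, arr-1 lower), against 31.1% of genes (17.8% higher, 13.3% lower). With lithium at 20 C 1 of 9 did (tax-4, lower), against 33.5% (18.4% higher, 15.1% lower). For 15 C against 20 C 4 of 9 lay apart with lithium (odr-1 and tax-4 higher, egl-4 and arr-1 lower), against 20% of genes (9.45% higher, 10.5% lower), and 4 of 9 on plain agar (odr-3, tax-4, egl-4 and arr-1, all lower), against 45.7% (22.6% higher, 23.2% lower). On ice 1 of 9 lay apart with conditioning in shifted worms (odr-3, higher, in CPM alone, since its 2, 3 and 2 counts in conditioned worms met the 2, 1 and 0 of naive worms at 2), against 1.94% of genes (0.915% higher, 1.02% lower), and 1 of 9 for shifted worms against 20 C (tax-4, higher), against 15.9% (11.2% higher, 4.67% lower). No member lay apart with conditioning at 15 C, against 1.93% of genes (0.753% higher, 1.18% lower), or at 20 C, against 1.66% (1.02% higher, 0.646% lower). None did for 15 C against 20 C on ice, against 10.3% (7.86% higher, 2.47% lower), or for shifted worms against 15 C, against 3.37% (2.03% higher, 1.34% lower). These shares are of genes that passed the filter, which most members did not.

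**Figure D5:**
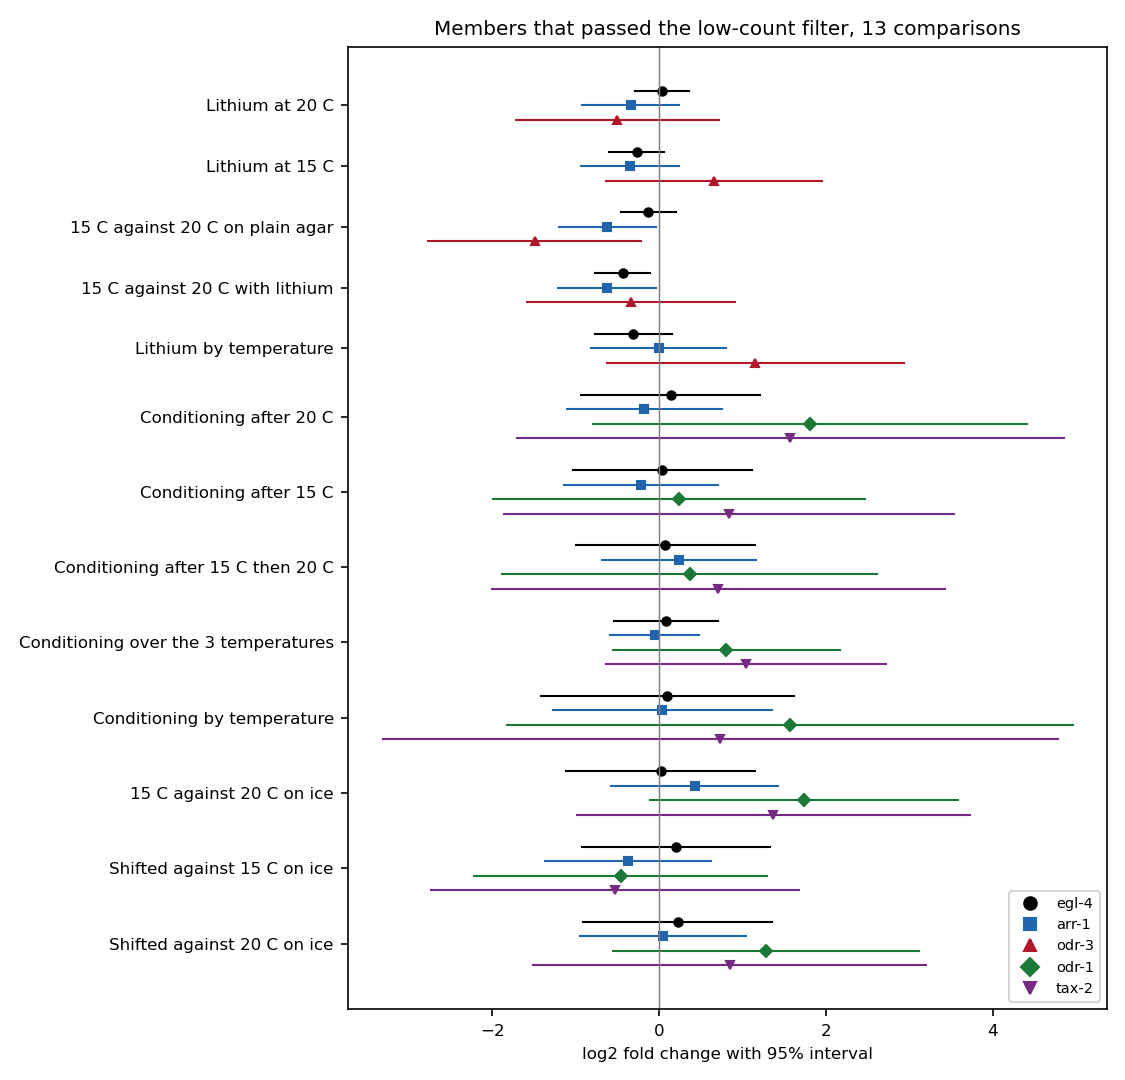
Log2 fold change with its 95% interval for each member that passed the filter, in the 13 comparisons (first-named group over second; for the rows by temperature, lithium response at 15 C minus 20 C and conditioning response at 20 C minus 15 C). Intervals of egl-4 are narrow in the lithium experiment, those of odr-1 and tax-2 on ice span several log2 units, and none of the values passed the test after adjustment.

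The genes most like a member were sought for the 2 members that passed the filter in both experiments, as the smaller of the Pearson correlations of log2 CPM over the 12 lithium libraries and over the 18 ice libraries. For egl-4 they were dyn-1, the dynamin gene of endocytosis (r = 0.93 over 12 and 0.93 over 18 libraries), and phf-15 (0.91 and 0.94), out of 11997 genes. For arr-1 they were M163.1 (0.88 and 0.84) and C07A12.7 (0.84 and 0.83). These are descriptions: genes share their libraries, partners of a letter are not independent, and the highest of 11997 correlations is high by choice.

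Of the wider pathway, a channel gene related to tax-2 and tax-4 stood out. The cyclic nucleotide-gated channel gene cng-1 (chromosome V, 15025731 to 15031473, minus strand) rose with lithium at both temperatures. It had 6.24, 6.65 and 6.29 CPM with lithium at 15 C and 0.624, 0.925 and 0.651 CPM on plain agar at 15 C. At 20 C it had 8.69, 11.1 and 8.75 CPM with lithium and 0.765, 2.69 and 2.08 CPM on plain agar. Every lithium library lay above every library on plain agar.

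In counts, cng-1 had 187, 63 and 103 with lithium at 15 C against 11, 9 and 12 on plain agar at 15 C, and 112, 156 and 123 with lithium at 20 C against 14, 38 and 43 on plain agar at 20 C. The log2 fold change was 3.14 at 15 C (SE 0.41, edgeR adjusted p = 0.0058) and 2.37 at 20 C (SE 0.38, adjusted p = 0.017). Leaving out 1 library gave 3.04 to 3.31 at 15 C, with an adjusted p of up to 0.070 without plain agar replicate 3, and 2.01 to 2.73 at 20 C, with an adjusted p of up to 0.078 without lithium replicate 2. With the 6 compared libraries fitted alone the adjusted p at 20 C was 0.14. The responses of the 2 temperatures differed by 0.77 (SE 0.54, adjusted p = 0.56), and on plain agar the gene had a log2 fold change of -1.34 for 15 C against 20 C (SE 0.41, adjusted p = 0.053). It shares 280 exon bases with F14H8.8 on the opposite strand, a gene with at most 2 counts in any of the 12 libraries. In the same comparisons germline markers were higher with lithium at 20 C, 8 of 14 called, where 5.91% of all genes tested were called higher. At 15 C 0 of 14 were called, where 0.387% of all genes tested were called. The part of germline markers in cng-1 was not tested.

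The other pathway genes moved less. Of the 8 channel genes in its list, 2 passed the filter and cng-1 was the one called. Of all genes tested, 12.2% were called with lithium at 20 C, 0.387% with lithium at 15 C and 9.97% for 15 C against 20 C on plain agar. In the other comparisons of the lithium experiment 0% were called, so a count of 0 says nothing there. Of 15 further G protein subunit genes tested in the lithium experiment 0 were called in any comparison, as were 0 of 11 regulators and receptor kinases, 0 of 5 guanylyl cyclases and 0 of 5 phosphodiesterases. Their median log2 fold changes with lithium at 20 C were -0.49, -0.28, -0.42 and -0.29, beside -0.07 over all genes tested, and at 15 C 0.03, -0.24, -0.29 and -0.24, beside 0.07. Of the 31 guanylyl cyclase genes matched, 5 passed the filter, so most of that family was not tested.

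Among 17 genes of odour adaptation and EGL-4 partners, 2 rose and 1 fell with lithium at 20 C, where 5.91% of all genes tested were called higher and 6.33% lower. The T-box gene tbx-2, needed in AWC for adaptation, fell, with 2.75 ± 0.183 CPM with lithium and 8.50 ± 5.24 CPM on plain agar (mean and SD of 3 libraries). Its log2 fold change was -1.62 (SE 0.39, adjusted p = 0.029), and -0.99 without plain agar replicate 2. The small RNA gene rde-4 (log2 fold change 0.81, SE 0.20, adjusted p = 0.031) and the HP1-type chromatin gene hpl-2 (0.60, SE 0.15, adjusted p = 0.031) rose. Between 15 C and 20 C on plain agar hpl-2 (0.64, SE 0.15, adjusted p = 0.034) and the small RNA gene mut-7 (0.62, SE 0.17, adjusted p = 0.041) were higher at 15 C, 2 of 17 genes where 2.19% of all genes tested were called higher. Of 11 genes of AWC asymmetry and forgetting tested, the claudin-like gene nsy-4 fell with lithium at 20 C (-2.29, SE 0.69, adjusted p = 0.0498), but it was -0.84 without plain agar replicate 2 (adjusted p = 0.28). Markers of other tissues were also called lower with lithium at 20 C, among them ric-3 of neurons (log2 fold change -2.49), myo-2 of pharyngeal muscle (-2.75) and dpy-7, sqt-3 and dpy-10 of the hypodermis (-5.91, -4.33 and -3.39). These were taken from the called members, and the sums of their lists overlapped between lithium and plain agar at 20 C. Neuron markers summed to 430 to 551 CPM with lithium and 437 to 764 CPM on plain agar. Muscle markers summed to 3184 to 4831 and 2926 to 5934 CPM, and hypodermis markers to 590 to 931 and 551 to 993 CPM. The part of these markers in the values of tbx-2 and nsy-4 was not tested. Leaving out single libraries ended each of the calls of tbx-2, rde-4, hpl-2, mut-7 and nsy-4 at least once. The same held for the calls of ric-3, myo-2, dpy-7, sqt-3 and dpy-10.

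On ice 0 genes of the 7 pathway lists were called in any comparison, where 0% of all genes tested were called. For 15 C against 20 C the median log2 fold change was 2.48 over 20 guanylyl cyclase genes, all positive, 1.65 over 4 channel genes, 0.44 over 19 G protein subunit genes, 0.16 over 11 regulators, 1.43 over 12 genes of AWC asymmetry and forgetting, 1.41 over 5 phosphodiesterase genes and 0.14 over 17 genes of odour adaptation, beside 0.14 over all genes tested. The summed level of the 31 guanylyl cyclase genes overlapped, with 107.5, 33.1 and 32.5 CPM at 15 C in letters B, G and H and 47.6, 9.46 and 33.5 CPM at 20 C in letters A, E and F. Letter B was the one letter of 15 C above all of 20 C in that sum. Markers of ciliated neurons had a median of 2.94, with 20 of 21 positive. Their letter sums overlapped, with 28.7 to 115 CPM at 15 C and 21.3 to 36.9 CPM at 20 C. Germline markers had a median of -0.49. Letter B had the highest neuron marker sum and the highest CPM for 6 of the 9 members, and the part of neuron markers in the members' values was not tested.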

How the data were processed

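The 30 libraries were compared from raw counts per gene, deposited by the authors as one table per experiment and checked to be whole numbers with unequal column totals. The submitters' processing notes name build ce11 and, without versions, cutadapt, FastQC, HISAT2, HTSeq and DESeq2. Whether counting used strand is not given in the sources used here. Per the labels, a directional NEBNext Ultra II kit served for lithium, while ice libraries came from SMART-Seq HT or v4 cDNA with Nextera XT, without stating which kit served which library.

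Genes were matched by identifier to the Ensembl annotation of the same assembly, which gave 44017 of 46904 lithium-experiment rows and 43818 of 46778 ice-experiment rows a symbol, and all 9 members. Counts were fitted with edgeR 4.0.16 (limma 3.58.1, R 4.3.3): TMM scaling, filterByExpr, the robust quasi-likelihood test, Benjamini-Hochberg adjustment over all genes tested and a two-sided threshold of 0.05. CPM are TMM-scaled. The fits used 12 lithium libraries (12392 genes), 18 ice libraries (14864 genes) and, for temperature on ice, 9 sums over conditioned and naive libraries of a letter (15412 genes). Letter H labels a pair at 15 C and another in shifted worms. Scripts were tested on simulated data.

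Replicates: the series calls those on ice biological, and for the lithium libraries nothing states separate cultures, so p-values measure the spread between these libraries. No pair of libraries within a group agreed within counting noise (lowest chi-square per degree of freedom 23.3 over 30 pairs). Residuals of conditioned and naive partners of a letter correlated in 9 of 9 pairs (r 0.47 to 0.90), so letters pair the ice libraries. The SE and intervals printed for conditioning come from the fit without letters and take up the spread between letters.

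Always named are the 9 members. From 15 lists (8 of markers, 7 of pathways) up to 3 called genes per comparison with at least 1 CPM were eligible by rule. The members and lists were chosen with earlier results of these data known. Alternatives were DESeq2 1.42.0, RLE scaling, no filter, the compared libraries alone, a replicate block and each library left out; that without letters B and H was chosen after seeing the data.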

Additional observations from a re-analysis of the deposited data

Results flagged for a closer look

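The channel gene tax-4 was flagged because its temperature difference ran one way with lithium and the other way on plain agar. It had 3, 1 and 3 counts with lithium at 15 C and 1, 0 and 0 with lithium at 20 C, but 1, 1 and 0 counts on plain agar at 15 C and 2, 4 and 3 on plain agar at 20 C. In edgeR with no filter on low counts the difference between these 2 contrasts was 3.82 on the log2 scale (SE 1.73, unadjusted p = 0.036, adjusted p = 0.77), so it did not pass over all genes, and the gene was too low for the filtered fit.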

How the results depend on the processing

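No member was called under RLE scaling, DESeq2, no filter, the libraries compared alone, the replicate block or the fits without letters B and H, and 1 call appeared when a library was left out, odr-3 for 15 C against 20 C on plain agar (-1.86, adjusted p = 0.031). Signs of uncalled members changed in several settings, most of all for odr-3 without plain agar replicate 2 of 20 C and for tax-2 without letter B. Counts of called genes over the whole tables depended more on the settings, and the cause was not tested. Lithium at 20 C gave 2575 with DESeq2, 984 with no filter, 0 with the compared libraries alone and 5 to 2855 with 1 library left out. Lithium at 15 C gave 390 with DESeq2, 264 with the compared libraries alone and 11 to 21 with 1 left out. The comparison of 15 C against 20 C on plain agar gave 2987 with DESeq2, 711 with no filter, 0 with the compared libraries alone and 0 to 2828 with 1 left out. With lithium it gave 84 with DESeq2, 11 with no filter, and 0 to 1 with 1 left out. On ice, conditioning gave 2 at 20 C, 2 at 15 C, 1 across temperatures and 1 for its difference between temperatures with no filter. For 15 C against 20 C DESeq2 gave 184 and no filter 972, for shifted worms against 15 C 1 and 284, and for shifted worms against 20 C 999 and 1320, with 566 without letters B and H and 0 to 554 with 1 letter left out.

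With the replicate block the count for 15 C against 20 C with lithium was 3, and lithium at 20 C gave 1479 and lithium at 15 C 63. Replicate numbers paired the lithium libraries in part at most. Residual r was -0.32 to 0.35 and positive in most of 18 pairs, with 7 of 12 libraries best with their own number. On ice, where letters pair, the block gave 0 for every conditioning comparison. Depth limits the 7 low genes: their median count per library was at most 5.5, except for odr-3 with lithium or plain agar (20) and odr-1 on ice (15), and without letters B and H the 15 C group is letter G alone, assumed to vary like the others.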
